A study of Mus musculus with 15 samples.

Results

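The nuclear genes of respiratory chain complexes II to V were examined in the mouse aorta. They were the genes whose symbols begin with Sdh, Uqcr, Atp5, Cox4 to Cox8 or Cox10 to Cox19, measured by a probe set that names exactly 1 gene, without Cox7a1 and Cox8b. The rule found 56 of the 22180 genes measured. There were 4 subunits of complex II, 7 of complex III, 9 of complex IV and 17 of complex V, 5 tissue isoforms of complex IV subunits, 12 assembly factors or related proteins, and 2 pseudogenes. No filter on low values was used, so all 56 were tested. Cox6c and Uqcr10 were measured only by probe sets that also name another gene and are given apart.

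The 15 arrays held total RNA of aorta from mice of the inbred strain DBA/2NCrl, 8 weeks old at the start. For 5 days the mice were given either standard chow with 7.0 g of phosphorus per kg or a high-phosphate diet with 20.2 g per kg. There were 4 arrays of abdominal aorta on high phosphate, 4 of abdominal aorta on chow, 3 of thoracic aorta on high phosphate and 4 of thoracic aorta on chow. The labels name no genotype, transgene or drug for any group, and all groups share strain and age. The labels call the arrays of a group biological replicates but give neither the sex nor whether both segments came from the same animals, so p-values measure the spread between these arrays. Values are log2 intensities, and a change is a difference of log2 values with its standard error. A gene was called at an adjusted p under 0.05 in limma's moderated test (Benjamini-Hochberg, across the 22180 genes).

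The respiratory chain sits in the inner mitochondrial membrane. Complex II, which is also the succinate dehydrogenase of the citric acid cycle, and complex I pass electrons to ubiquinone, complex III passes them on to cytochrome c, complex IV hands them to oxygen, and complex V uses the resulting proton gradient to make ATP. All complex II subunits are encoded in the nucleus, whereas complexes I, III, IV and V combine nuclear subunits with subunits encoded in mitochondrial DNA. The aortic wall is mainly smooth muscle, and the fat around it contains brown adipocytes, which are dense in mitochondria and use the uncoupling protein Ucp1 to release the gradient as heat.

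Smooth muscle markers, defining for the labelled tissue, were present on every array, with a list mean over 11 genes of 7.99 to 9.26. Other cell types were present too. The list mean of brown adipocyte markers (11 genes) was 7.88 to 8.44 on the 8 chow arrays, where Ucp1, their defining gene, read 11.36 to 11.97. T and NK cell markers (10 genes) averaged 7.55 to 8.41 on abdominal high-phosphate arrays 1, 2 and 4 and abdominal chow arrays 2 and 4, against 5.50 to 6.22 on the other 10 arrays. Hepatocyte markers (10 genes) averaged 8.79 and 11.00 on abdominal high-phosphate arrays 3 and 4, where the other 13 arrays lay between 4.99 and 6.57. Cardiac muscle markers (13 genes) averaged 7.50 to 8.25 in the thoracic arrays and 5.83 to 6.07 in the abdominal ones. In such bulk samples fewer cells of a type and less RNA per cell cannot be told apart.

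Nuclear genes of the chain are known targets of nuclear respiratory factor 1 (NRF1), of ETS factors such as GABPA, of YY1 and of estrogen-related receptors. Promoter windows, from 250 bases before to 50 after the start of transcription, were found in RefSeq (GRCm38.p6) for 42 of the 54 members other than pseudogenes, 30 of them subunits. To show what these promoters look like, the stretch from 180 bases before to 10 after the start is printed for 1 subunit per complex. Each is the subunit with the smallest p of the abdominal diet change among those with a single window and an NRF1-like match before the start. Letters run 5′ to 3′ along the gene. Capitals mark matches, on either strand, to GCGCNTGCG or to CCGGAAG.
Sdha, chr13:74350231-74350420, minus strand: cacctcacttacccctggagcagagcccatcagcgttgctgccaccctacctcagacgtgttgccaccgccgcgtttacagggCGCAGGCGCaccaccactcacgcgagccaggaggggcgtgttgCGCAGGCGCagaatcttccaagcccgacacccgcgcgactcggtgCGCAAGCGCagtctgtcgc
Uqcr11, chr10:80406812-80407001, minus strand: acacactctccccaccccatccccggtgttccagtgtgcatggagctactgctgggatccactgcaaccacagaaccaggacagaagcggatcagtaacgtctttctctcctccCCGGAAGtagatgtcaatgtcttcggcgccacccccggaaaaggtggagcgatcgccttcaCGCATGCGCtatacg
Cox6a1, chr5:115348949-115349138, minus strand: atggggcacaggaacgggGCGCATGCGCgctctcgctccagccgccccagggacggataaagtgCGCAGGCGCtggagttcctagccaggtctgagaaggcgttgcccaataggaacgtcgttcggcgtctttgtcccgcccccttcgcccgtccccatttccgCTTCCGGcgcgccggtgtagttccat
Atp5k, chr5:108434390-108434579, minus strand: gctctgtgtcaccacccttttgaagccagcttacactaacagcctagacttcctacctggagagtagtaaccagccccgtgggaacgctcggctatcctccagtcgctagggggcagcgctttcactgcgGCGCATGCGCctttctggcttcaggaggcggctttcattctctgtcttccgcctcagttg

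Counted from the start, the Sdha matches to GCGCNTGCG begin at -97, -54 and -9. The match in Uqcr11 begins at -5 with an ETS match at -66, and Atp5k has overlapping matches at -50 and -49. Cox6a1 has overlapping matches at -162 and -161, another at -116 and an ETS match at -16. GCGCNTGCG includes the stricter GCGCATGCG, whose near-palindrome gives the overlapping pairs.

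Over whole windows, GCGCNTGCG was found in 14 of 30 subunit genes (46.7%), against 9.79% of the 16918 array genes with a window. GCGCATGCG was found in 6 (20.0%, against 2.66%) and the ETS motif CCGGAAG in 13 (43.3%, against 12.7%). Matches to the estrogen-related receptor motif TCAAGGTCA were in 2 (6.67%, against 0.366%), and its core AAGGTCA, contained in it, was in 5 (16.7%, against 4.66%). YY1's AAGATGGCG was in 2 (6.67%, against 2.18%). Among the 23 subunits that fell in the abdominal diet comparison 11 had GCGCNTGCG (47.8%) and 12 CCGGAAG (52.2%), and among the 7 not called 3 (42.9%) and 1 (14.3%). The same counts were 5 and 1 for GCGCATGCG, 1 and 1 for TCAAGGTCA, 4 and 1 for AAGGTCA, and 0 and 2 for AAGATGGCG. These splits were not tested. Both strands were searched, and a match is a run of letters and not a measured binding site.

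Most of these genes were lower on high phosphate in the abdominal aorta. Of the 56 members 37 were called lower and 0 higher (limma, adjusted p under 0.05), where 5.06% of all genes were called lower and 1.95% higher. All 4 complex II subunits, all 7 of complex III, 8 of 9 of complex IV and 11 of 17 of complex V fell, as did 6 of 12 assembly factors and 1 of 5 tissue isoforms. The median change was -0.53 over the members and -0.01 over all genes. For 41 members every high-phosphate array lay below every chow array, as for 7.75% of all genes.

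Fewer members passed the test in the thoracic aorta. There 13 members were called lower and 0 higher, against 1.08% and 1.39% of all genes. Complex II gave 1 of these calls, complex III 4, complex IV 3, complex V 3, the tissue isoforms 1 and the assembly factors 1. All 13 were also called lower in the abdominal aorta, and 24 were called in that segment only. Over all 56 members the median change was -0.27, against -0.01 over all genes, 53 changes were negative, and for 27 members the groups did not overlap, as for 6.67% of all genes. Single thoracic arrays moved this count. It was 6 without high-phosphate array 2, 3 without high-phosphate array 3, and 4, 7 and 5 without chow arrays 1, 2 and 4. Cox6b2, Atp5e and Atp5k were called whichever array was left out.

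The diet change was larger in size in the abdominal aorta for 52 of the 56 members and for all 37 subunits. Tested directly, the difference between the 2 changes passed for 0 members, as for 0% of all genes in either direction. At an unadjusted p under 0.05 limma gave 21 members and 1217 of 22180 genes. The smallest adjusted p among the members was that of Atp5e, 0.80, with a difference of -0.31 ± 0.09 (95% interval -0.49 to -0.12). The median difference was -0.21 over the members and -0.01 over all genes.

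**Figure D1:**
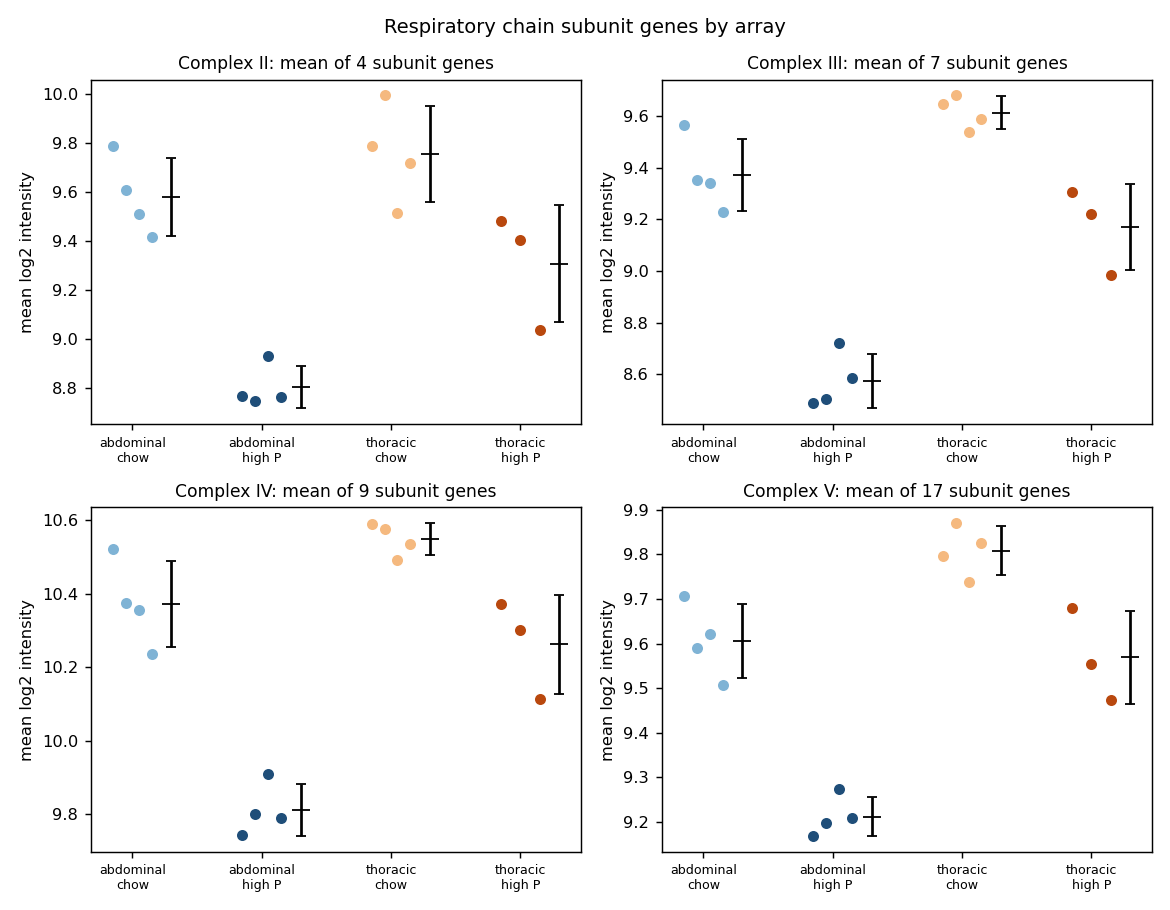
Mean log2 intensity of the subunit genes of complexes II, III, IV and V on each array (points), by segment and diet, with the group mean and standard deviation beside them. In the abdominal aorta the high-phosphate arrays lay below all chow arrays in each of the 4 complexes, for complex II at 8.75 to 8.93 against 9.42 to 9.79.

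Complex II fell as a whole in the abdominal aorta. Sdhc, a membrane anchor that helps bind ubiquinone, read 7.55, 7.50, 7.79 and 7.47 on the high-phosphate arrays and 8.64, 8.45, 8.33 and 8.28 on the chow arrays. In the thoracic aorta it read 8.29, 8.13 and 7.90 on high phosphate and 8.59, 8.82, 8.44 and 8.53 on chow. The groups were apart in both segments, and abdominal high-phosphate arrays were the lowest of all. Its change was -0.85 ± 0.11 (adjusted p = 0.00025), 1.80-fold lower, and -0.49 ± 0.12 in the thoracic aorta (adjusted p = 0.044).

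Sdha, the flavoprotein that oxidises succinate, read 11.21, 11.11, 11.23 and 11.13 in the abdominal high-phosphate group and 11.89, 11.78, 11.69 and 11.66 on chow. Its thoracic values were 11.65, 11.68 and 11.33 on high phosphate and 11.90, 11.98, 11.65 and 11.85 on chow. The abdominal groups were apart and the thoracic ones overlapped. The changes were -0.59 ± 0.09 (adjusted p = 0.00057) and -0.29 ± 0.09 (adjusted p = 0.12).

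The other anchor, Sdhd, had the largest p of the 4. It read 8.05, 8.09, 8.16 and 8.11 in the abdominal aorta on high phosphate and 9.22, 9.07, 8.84 and 8.76 on chow. Thoracic arrays read 8.94, 8.77 and 8.34 on high phosphate and 9.23, 9.67, 8.85 and 9.24 on chow. The 4 abdominal high-phosphate values lay close together, below all others, and the chow values were spread. Sdhd fell by 0.87 on the log2 scale (SE 0.16, adjusted p = 0.0027), and Sdhb, the iron-sulfur subunit, by 0.80 (SE 0.12, adjusted p = 0.00081). The thoracic values were -0.56 for Sdhd (adjusted p = 0.099) and -0.45 for Sdhb (adjusted p = 0.092).

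Complex III held the member with the largest change. Uqcrc1, a core protein of the complex on its matrix side, fell by 1.20 (SE 0.16, adjusted p = 0.00025), 2.30-fold, in the abdominal aorta. Its abdominal arrays read 7.92, 7.96, 8.24 and 8.01 on high phosphate and 9.59, 9.20, 9.06 and 9.08 on chow, and its thoracic ones 8.94, 9.05 and 8.45 against 9.46, 9.87, 9.29 and 9.34. The groups were apart in both segments, and the thoracic change was -0.68 ± 0.17 (adjusted p = 0.046).

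Uqcrq, a small subunit near the ubiquinone site, had the smallest p of the complex. It read 6.37, 6.44, 6.75 and 6.83 in the abdominal high-phosphate group and 7.65, 7.48, 7.55 and 7.52 on chow, a change of -0.95 ± 0.10 (adjusted p = 7.2e-05). Thoracic arrays read 7.41, 7.35 and 7.17 on high phosphate and 7.89, 7.93, 7.80 and 8.01 on chow. The chow arrays of each segment formed a narrow group above all high-phosphate arrays of that segment. The thoracic change was -0.60 ± 0.11 (adjusted p = 0.0093), and 0.051 without thoracic high-phosphate array 3.

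The other core protein, Uqcrc2, read 10.05, 10.13, 10.26 and 10.16 on abdominal high-phosphate arrays and 11.10, 10.92, 10.90 and 10.80 on chow. In the thoracic aorta it read 10.83, 10.86 and 10.50 against 11.27, 11.22, 11.05 and 11.12. No high-phosphate array reached a chow array of its segment. The changes were -0.78 ± 0.09 (adjusted p = 9.2e-05) and -0.44 ± 0.09 (adjusted p = 0.023).

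Uqcrh, the hinge protein that helps dock cytochrome c, changed least in the complex. It read 10.21, 10.28, 10.43 and 10.18 on abdominal high-phosphate arrays and 10.94, 10.72, 10.77 and 10.59 on chow. Thoracic values were 10.93, 10.74 and 10.75 on high phosphate and 10.98, 10.97, 11.03 and 10.89 on chow. Only the abdominal groups were apart, with a change of -0.48 ± 0.08 (adjusted p = 0.0012), and the thoracic value was -0.16 ± 0.08 (adjusted p = 0.42). The Rieske iron-sulfur protein Uqcrfs1 and the small subunits Uqcrb and Uqcr11 fell by 0.78, 0.75 and 0.66 in the abdominal aorta. Of these Uqcr11 was also called in the thoracic aorta, at -0.45 (adjusted p = 0.018).

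Outside the symbol rule, cytochrome c1 (Cyc1), a heme subunit of complex III, fell by 1.09 in the abdominal aorta (adjusted p = 0.00013) and by 0.61 in the thoracic one (adjusted p = 0.028). Cycs, the cytochrome c that carries electrons from complex III to complex IV, fell by 0.85 and 0.51 (adjusted p = 8.9e-05 and 0.016). The shared probe set of Uqcr10 read lower by 0.89 and 0.55 (adjusted p = 0.00056 and 0.049 over all 41345 probe sets).

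In complex IV the subunits found in most tissues fell in the abdominal aorta, apart from Cox7c. Cox5b, which binds zinc, read 9.97, 9.82, 10.10 and 9.90 on abdominal high-phosphate arrays and 10.73, 10.76, 10.62 and 10.53 on chow. Its thoracic arrays read 10.53, 10.53 and 10.44 on high phosphate and 10.99, 10.72, 10.94 and 10.82 on chow. High-phosphate arrays lay below chow in both segments. The changes were -0.71 ± 0.08 (adjusted p = 6.7e-05) and -0.37 ± 0.08 (adjusted p = 0.026), and its dimmer probe set gave -0.49 and -0.30.

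Cox6a1, the form of subunit 6a found in most tissues, read 11.30, 11.45, 11.54 and 11.30 on abdominal high-phosphate arrays and 12.09, 11.90, 11.90 and 11.96 on chow. In the thoracic aorta it read 11.92, 11.81 and 11.77 on high phosphate and 12.13, 12.26, 11.99 and 12.05 on chow. The groups did not overlap in either segment. The abdominal change was -0.57 ± 0.07 (adjusted p = 0.00022), and the thoracic value of -0.27 ± 0.08 did not pass (adjusted p = 0.083).

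Cox7c, a small membrane subunit, was the exception, on a probe set that read close to the array medians of 5.778 to 5.84. It read 5.66, 5.54, 5.53 and 5.50 on abdominal high-phosphate arrays and 6.03, 5.84, 5.79 and 5.61 on chow, and 5.83, 5.81 and 5.75 against 6.01, 5.84, 5.99 and 5.77 in the thoracic aorta. Both pairs of groups overlapped. The values of -0.26 ± 0.09 (adjusted p = 0.10) and -0.10 ± 0.10 (adjusted p = 0.75) were not called.

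The other 6 subunits of complex IV fell by 0.47 to 0.77 in the abdominal aorta, from Cox7a2 to Cox5a. Cox4i1, the subunit through which ATP regulates the enzyme, fell by 0.53 and Cox8a by 0.57. Thoracic calls were made for Cox5a at -0.51 (adjusted p = 0.024) and for Cox6b1, which faces the intermembrane space, at -0.31 (adjusted p = 0.046). Cox7b fell by 0.63, whereas its dimmer probe set gave -0.29 (unadjusted p = 0.027). Ndufa4, a protein associated with complex IV, fell by 0.53 in the abdominal aorta (adjusted p = 9.2e-05). Cox6c, measured by a probe set shared with a predicted gene, read lower by 0.69 and 0.37 (adjusted p = 0.00017 and 0.039 over all probe sets).

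Complex V moved least of the 4 complexes and its subunits covered the widest range, from -0.79 to 0.28 in the abdominal aorta. Atp5e, the epsilon subunit of the central stalk, ranked 8 of all 22180 genes by p in the abdominal comparison. It read 10.97, 11.00, 11.02 and 10.93 on high phosphate and 11.82, 11.56, 11.66 and 11.57 on chow, a change of -0.67 ± 0.06 (adjusted p = 2.7e-05). Thoracic arrays read 11.66, 11.49 and 11.53 against 11.92, 11.89, 11.96 and 11.93, a change of -0.37 ± 0.06 (adjusted p = 0.0079). Neither pair of groups overlapped. A dimmer probe set of Atp5e gave -0.75 and -0.39.

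Atp5k, subunit e of the membrane part, read 9.77, 9.91, 9.96 and 9.98 on abdominal high-phosphate arrays and 10.66, 10.54, 10.66 and 10.49 on chow. Its thoracic arrays read 10.40, 10.39 and 10.19 on high phosphate and 10.75, 10.73, 10.82 and 10.71 on chow. Both segments kept their groups apart. The changes were -0.69 ± 0.07 (adjusted p = 4.1e-05) and -0.43 ± 0.07 (adjusted p = 0.0063).

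Atp5c1, the gamma subunit that turns inside the catalytic head, had the largest p. It read 7.29, 7.10, 7.12 and 7.26 on abdominal high-phosphate arrays and 7.38, 7.49, 7.32 and 7.15 on chow, and 7.42, 7.36 and 7.30 against 7.42, 7.53, 7.46 and 7.53 in the thoracic aorta. The abdominal groups overlapped, and the thoracic ones met at 7.42 without overlapping. Neither -0.14 ± 0.08 (adjusted p = 0.33) nor -0.12 ± 0.08 (adjusted p = 0.59) was called.

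By role, the catalytic alpha and beta subunits Atp5a1 and Atp5b fell by 0.51 and 0.34 in the abdominal aorta and Atp5d, the delta subunit, by 0.77. The peripheral stalk subunits Atp5pb, Atp5o and Atp5h fell by 0.50, 0.56 and 0.38, whereas Atp5j of the same stalk gave -0.24 (adjusted p = 0.062). The dimmer probe set of Atp5h gave -0.18 (unadjusted p = 0.13). Atp5md and Atp5mpl, small proteins of the membrane part, fell by 0.79 and 0.46, and Atp5l, subunit g, by 0.26. Atp5md was also called in the thoracic aorta, at -0.71 ± 0.15 (adjusted p = 0.021).

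The 3 genes of the proton-carrying c ring, which encode the same mature protein, were not called. Atp5g2 gave -0.18 (adjusted p = 0.098) and Atp5g3 -0.20 (adjusted p = 0.085), with high-phosphate arrays below chow for each. Atp5g1 was the only subunit with a positive abdominal value, 0.28 ± 0.14 (adjusted p = 0.29). It read 5.13, 4.95, 5.21 and 4.91 on high phosphate and 4.72, 4.78, 4.79 and 4.79 on chow, groups that did not overlap at a low level. In the thoracic aorta it read 5.30, 4.51 and 5.17 against 5.08, 5.41, 5.04 and 5.24, which overlapped (-0.20 ± 0.15, adjusted p = 0.66). Subunit f, Atp5j2, gave -0.27 in the abdominal aorta (adjusted p = 0.23), with overlapping groups.

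**Figure D2:**
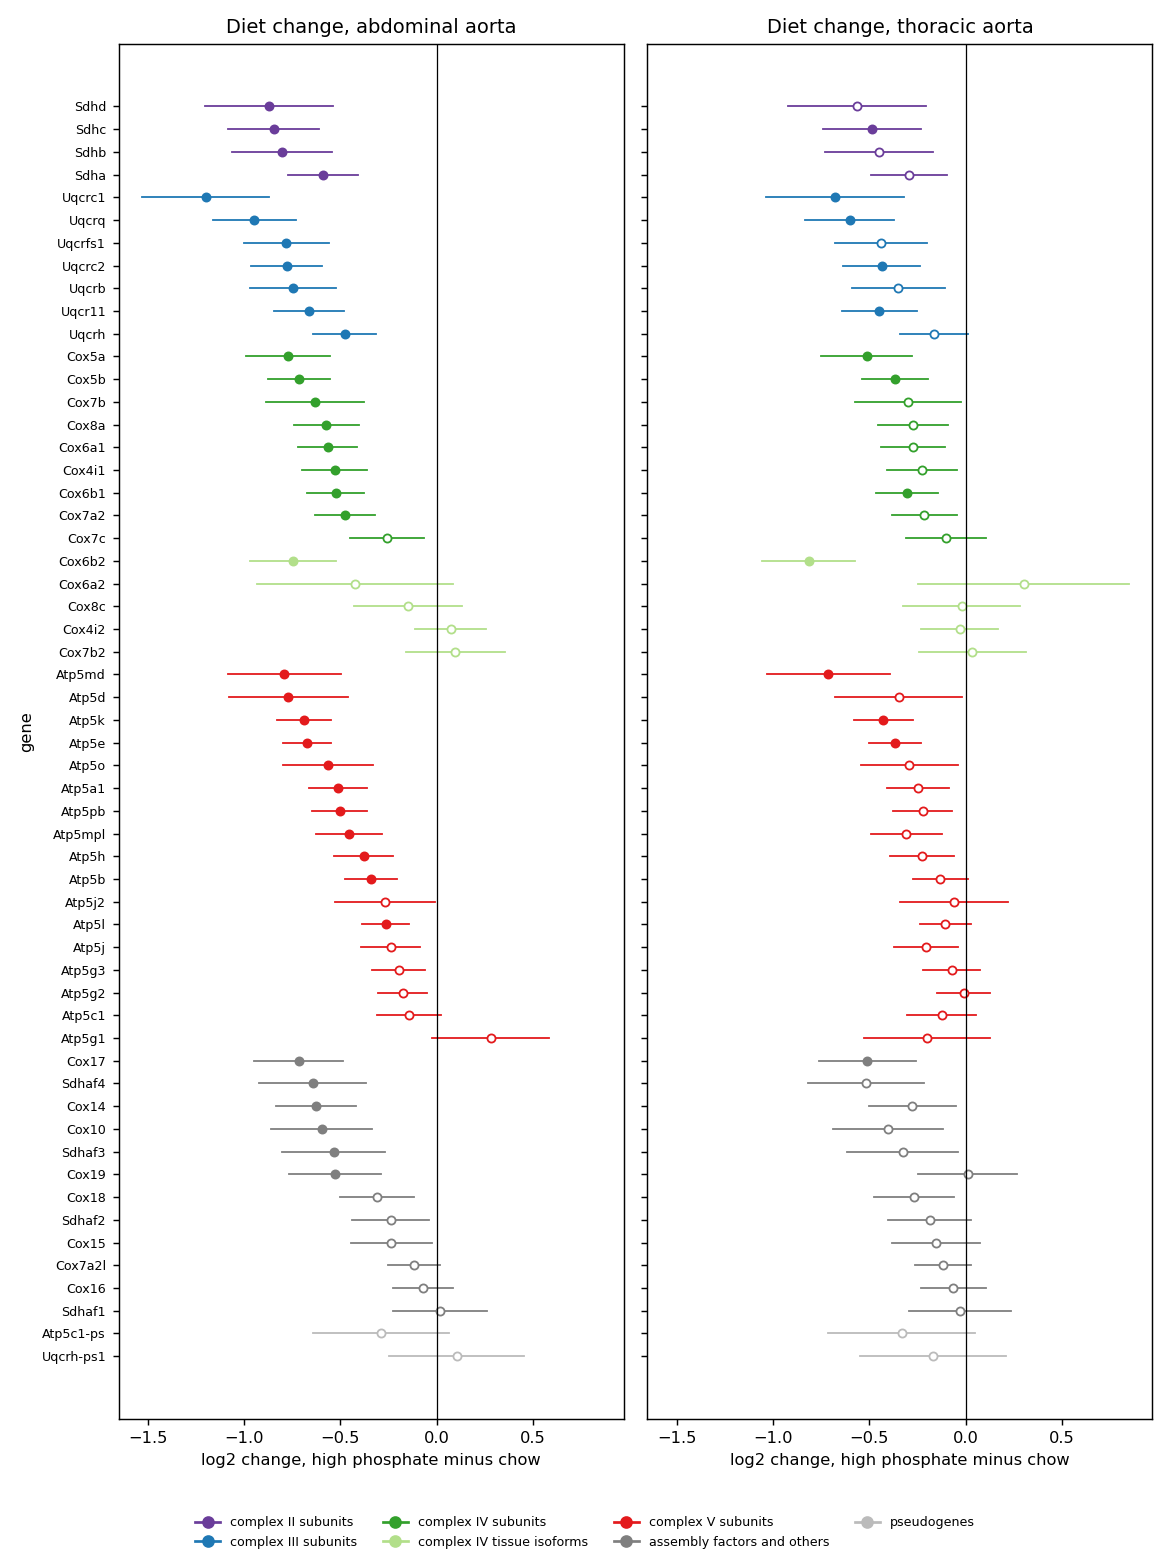
Log2 change on high phosphate for each of the 56 members (points, with 95% intervals) in the abdominal and thoracic aorta, coloured by group. Filled points passed the test, 37 in the abdominal and 13 in the thoracic aorta, and the abdominal medians of complexes II and III, -0.83 and -0.78, lie farther from 0 than that of complex V, -0.38.

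The complexes were compared with each other within each array, where differences of array brightness drop out. Complex II minus complex V, as a difference of mean log2 values, was -0.45 to -0.34 on abdominal high-phosphate arrays and -0.11 to 0.08 on abdominal chow arrays. Complex III minus complex V was -0.70 to -0.55 against -0.28 to -0.14, and complex IV minus complex V 0.57 to 0.64 against 0.73 to 0.81. None of these 3 pairs of ranges overlapped, so relative to complex V the other complexes stood lower on every abdominal high-phosphate array than on any abdominal chow array. In the thoracic aorta only complex III kept apart, at -0.49 to -0.34 against -0.24 to -0.15. Complex II (-0.44 to -0.15 against -0.22 to 0.13) and complex IV (0.64 to 0.75 against 0.71 to 0.79) overlapped. Median changes for complexes II, III, IV and V were -0.83, -0.78, -0.57 and -0.38 in the abdominal aorta and -0.47, -0.44, -0.27 and -0.22 in the thoracic one.

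Of the 5 tissue isoforms of complex IV subunits 1 fell on high phosphate, Cox6b2, known as the testis form of subunit 6b. It read 6.82, 6.88, 6.71 and 6.83 on abdominal high-phosphate arrays and 7.87, 7.59, 7.39 and 7.36 on chow, and 7.25, 7.10 and 7.23 against 8.21, 7.94, 7.99 and 7.90 in the thoracic aorta. The groups were well apart in both segments. The changes of -0.74 ± 0.11 (adjusted p = 0.00047) and -0.82 ± 0.11 (adjusted p = 0.0019) were close in size, with a difference of 0.07 (95% interval -0.26 to 0.40). Cox6b2 had the largest thoracic change of the 56 members.

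Cox6a2, the form of subunit 6a in heart and skeletal muscle, differed between the segments and was not called for the diet. It read 7.03, 6.40, 6.71 and 7.22 on abdominal high-phosphate arrays and 7.74, 7.09, 6.61 and 7.60 on chow, which overlapped (-0.42 ± 0.24, adjusted p = 0.36). Thoracic arrays read 8.72, 9.31 and 8.93 on high phosphate and 8.62, 8.30, 9.01 and 8.81 on chow, also overlapping (0.30 ± 0.26, adjusted p = 0.70). Every thoracic array lay above every abdominal one. Thoracic minus abdominal was 1.43 ± 0.24 on chow (adjusted p = 0.0027) and 2.15 ± 0.26 on high phosphate (adjusted p = 0.0002), 2.69-fold and 4.44-fold. Cardiac muscle markers differed in the same direction, 9 of 13 called higher on chow and 11 of 13 on high phosphate, with Myh6, cardiac myosin, at 3.64 and 4.55. Skeletal muscle markers (12 genes) varied widely within groups. Their list mean was 7.19, 5.66, 5.49 and 7.45 on abdominal high-phosphate arrays and 8.09, 6.87, 5.63 and 7.58 on chow, and 6.17, 5.96 and 7.62 against 5.64, 5.54, 6.58 and 5.66 in the thoracic aorta. In each abdominal group arrays 1 and 4 had the highest means and also the highest Cox6a2 values. Between segments on chow all 12 skeletal muscle markers were lower in the thoracic aorta, 1 of them called, opposite to Cox6a2. On high phosphate 10 of the 12 were higher there and 2 lower, with a median of 0.16 and 0 called. The part of either muscle list in the Cox6a2 values was not tested.

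Cox4i2, the lung form of subunit 4, read 6.39, 6.29, 6.41 and 6.42 on abdominal high-phosphate arrays and 6.12, 6.22, 6.53 and 6.35 on chow. In the thoracic aorta it read 6.25, 6.18 and 6.40 against 6.31, 6.34, 6.23 and 6.35. The 4 groups overlapped, and the diet values were 0.07 ± 0.09 and -0.03 ± 0.09. Cox8c stayed between 3.87 and 4.67 and Cox7b2 between 2.39 and 2.87 on all arrays, and neither was called in any comparison. Outside the rule, Cox7a1 and Cox8b, forms of heart, muscle and brown fat, fell by 2.51 and 1.65 in the abdominal aorta and by 1.45 and 0.72 in the thoracic one.

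**Figure D3:**
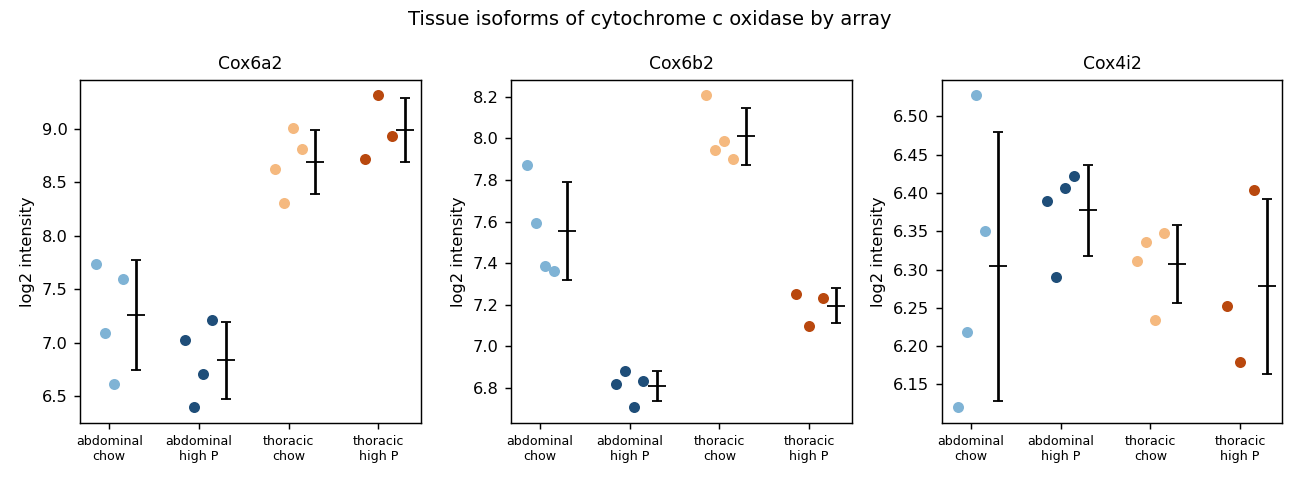
Log2 intensity of the complex IV tissue isoforms Cox6a2, Cox6b2 and Cox4i2 on each array (points) by segment and diet, with group mean and standard deviation, each on its own axis. Cox6a2 values are apart by segment (abdominal arrays up to 7.74, thoracic arrays from 8.30), Cox6b2 by diet within each segment, and Cox4i2 by neither.

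Among assembly factors the copper chaperone Cox17 had the smallest p. It read 7.96, 8.08, 8.33 and 7.95 on abdominal high-phosphate arrays and 8.84, 8.85, 8.91 and 8.60 on chow, and 8.87, 8.60 and 8.41 against 8.99, 9.24, 9.18 and 9.14 in the thoracic aorta. High-phosphate arrays were lower in both segments without overlap. The changes were -0.72 ± 0.11 (adjusted p = 0.00084) and -0.51 ± 0.12 (adjusted p = 0.033).

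Cox14, which acts early in the assembly of complex IV, read 8.25, 8.14, 8.30 and 8.12 on abdominal high-phosphate arrays and 9.10, 8.78, 8.83 and 8.59 on chow. Thoracic arrays read 8.91, 8.83 and 8.61 against 9.11, 9.13, 8.95 and 9.05. The groups were apart in both, with -0.62 ± 0.10 (adjusted p = 0.00098) and -0.28 ± 0.11 (adjusted p = 0.22).

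The complex II assembly factors Sdhaf4 and Sdhaf3 fell by 0.64 and 0.53 in the abdominal aorta, Cox10, which makes heme O, by 0.60, and the copper-handling Cox19 by 0.53. Without abdominal chow array 1 the adjusted p of Sdhaf3 was 0.065. Cox19 gave 0.01 in the thoracic aorta (adjusted p = 0.98). Sdhaf1, Sdhaf2, Cox15, Cox16, Cox18 and Cox7a2l, a protein of chain supercomplexes, were not called in the abdominal aorta, with values from -0.31 for Cox18 (adjusted p = 0.052) to 0.02 for Sdhaf1. The pseudogenes Atp5c1-ps and Uqcrh-ps1 lay between 3.10 and 4.53 and were not called.

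On chow few of these genes passed the test between the segments. Thoracic minus abdominal was positive for 54 of 56 members, with a median of 0.19 against 0.03 over all genes, and 5 members were called higher and 0 lower (all genes 1.76% and 3.02%). These were Cox6a2, Cox6b2 (0.45 ± 0.11, adjusted p = 0.021), Atp5e (0.27, adjusted p = 0.015), Atp5h (0.30, adjusted p = 0.025) and Atp5g2 (0.22, adjusted p = 0.047). The groups did not overlap for 15 members, higher in the thoracic aorta, as for 6.01% of all genes. Single arrays moved the count. It was 12 without abdominal chow array 1, 2 and 1 without abdominal chow arrays 3 and 4, and 3 without either of thoracic chow arrays 1 and 2. Cox6a2 was called in each case.

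On high phosphate more of them did. The direct test of the segment gaps between diets is that of the diet changes between segments, which called 0 members. Of the members 35 were called higher in the thoracic aorta and 0 lower, against 7.57% and 6.25% of all genes. They included all complex II and III subunits, 8 of 9 of complex IV and 11 of 17 of complex V. The median was 0.39, against 0.04 over all genes, and for 42 members the groups did not overlap, as for 13.7% of all genes. Among the subunits Uqcrc1 gave 0.78 ± 0.17 (adjusted p = 0.0073), Uqcrq 0.71 ± 0.11 (adjusted p = 0.00097), Atp5d 0.64 ± 0.16 (adjusted p = 0.014) and Atp5e 0.58 ± 0.06 (adjusted p = 0.00011). Of the 35 calls 24 held whichever array was left out, and the fewest, 24, were made without thoracic high-phosphate array 1. Without the 5 abdominal arrays with lymphocyte markers, which leaves 1 abdominal high-phosphate array, the median was 0.33 with 5 of 56 values negative. With the brown adipocyte mean as a covariate the median was 0.07 and 1 was called, where 35 of all genes were called. That mean was 6.90 to 7.16 on abdominal and 7.29 to 7.78 on thoracic high-phosphate arrays. Since these ranges do not overlap, the segment and this mean cannot be told apart on high phosphate. The comparisons of segments and of diets share the same 4 groups of arrays. Markers of cardiac muscle, smooth muscle and, in the opposite direction, T and NK cells and chromaffin cells also differed between segments, and their part in these differences was not tested.

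Other genes of the same organelle were read beside the members. Complex I, the entry point for NADH, had 30 of 32 measured nuclear subunits lower in the abdominal aorta and 20 of 32 in the thoracic one, with medians of -0.72 and -0.42. Its examples were Ndufa1 (-1.19 ± 0.11), Ndufs8 (-1.12 ± 0.12) and Ndufa9 (-0.93 ± 0.08) in the abdominal aorta. Partners and assembly factors of complexes II to V outside the symbol rule had 18 of 33 lower in the abdominal and 8 of 33 in the thoracic aorta. Genes of mitochondrial import and membrane structure had 10 of 19 and 2 of 19 lower, among them Letm1 (-0.86 ± 0.12), Timm50 (-0.77 ± 0.12) and Immt (-0.63 ± 0.10), which shapes the cristae.

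Subunits encoded in mitochondrial DNA were mostly not called. Of the 10 measured, 1 was called lower in the abdominal aorta, ND3 of complex I at -0.27 ± 0.06 (adjusted p = 0.018). None was called in the thoracic aorta by limma, and 0 had an unadjusted p under 0.05 there. Their median changes were -0.05 and -0.07. COX1, the catalytic core of complex IV, gave -0.01 ± 0.05, and CYTB, the cytochrome b of complex III, gave -0.02 ± 0.05 in the abdominal aorta. These 10 genes read between 10.92 and 13.01 on arrays whose highest value was 13.33, and a narrowing of differences at such brightness was not tested. Within that range on every array, the nuclear Atp5b, at 12.04 to 12.54, fell by 0.34 in the abdominal aorta, and Atp5l gave -0.26. Also within it were Sdha (-0.59), Cox6a1 (-0.57), Atp5e (-0.67), Atp5a1 (-0.51) and Cox6b1 (-0.52). The 37 nuclear subunits of complexes II to V had a median of -0.57. These values do not test such a narrowing.

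Of 16 transcriptional regulators of mitochondrial genes 4 were called lower in the abdominal aorta. These were the coactivators Ppargc1a (-1.15 ± 0.25, adjusted p = 0.011) and Ppargc1b (-0.84 ± 0.15, adjusted p = 0.0027), and the nuclear receptors Ppara (-0.996 ± 0.25, adjusted p = 0.024) and Esrrg (-0.48 ± 0.12, adjusted p = 0.029). Ppargc1b was the 1 called in the thoracic aorta (-0.68 ± 0.16, adjusted p = 0.039). Of the factors whose motifs were searched in the promoters, Esrrg, an estrogen-related receptor, thus fell, and Nrf1 (0.15), Gabpa (-0.002), Esrra (-0.09) and Yy1 (0.23) did not pass in the abdominal aorta (adjusted p = 0.44, 0.99, 0.54 and 0.091). RNA levels do not measure the activity of these proteins.

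**Figure D4:**
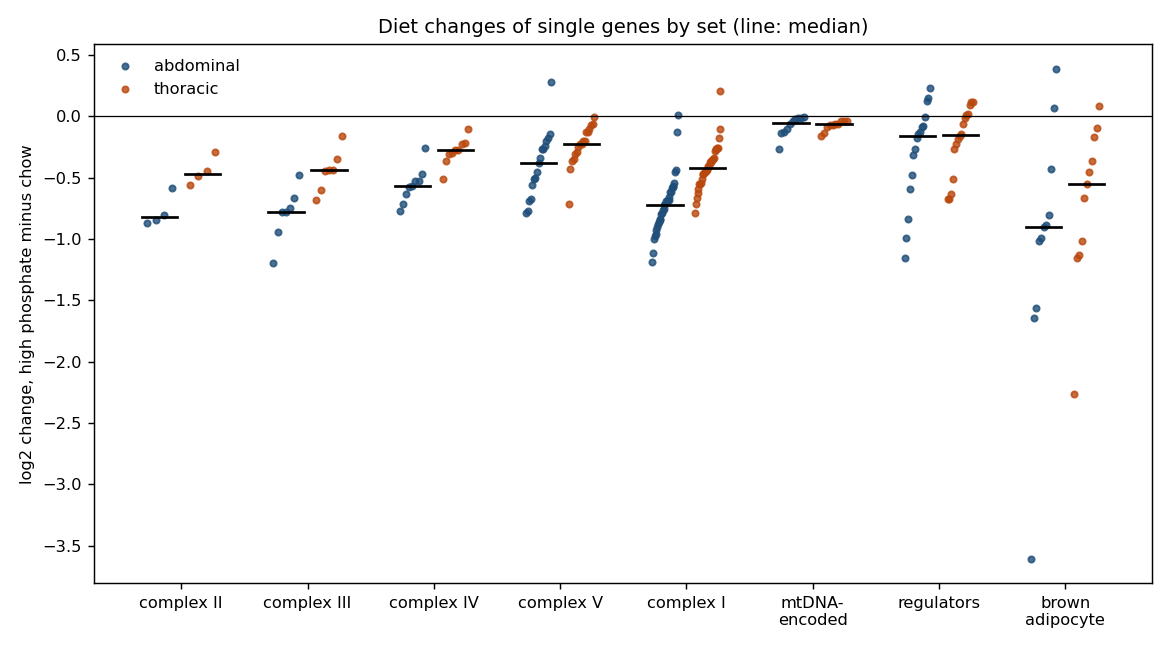
Log2 change on high phosphate of single genes (points) in the abdominal and thoracic aorta by gene group, with the median as a line. The nuclear subunits of complexes I to V lie mostly below 0, with medians of -0.38 to -0.83 in the abdominal aorta, the 10 genes of mitochondrial DNA lie near 0, and brown adipocyte markers reach -3.61.

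Brown adipocyte markers moved with these genes. Their list holds no respiratory chain gene, and 9 of 11 measured markers were lower in the abdominal and 3 of 11 in the thoracic aorta. The list mean was 6.90 to 7.16 on abdominal high-phosphate arrays against 7.88 to 8.22 on chow, and 7.29 to 7.78 against 8.18 to 8.44 in the thoracic aorta, without overlap. Ucp1 read 7.01, 9.03, 8.43 and 7.34 against 11.83, 11.41, 11.63 and 11.36 in the abdominal aorta, and 9.49, 10.32 and 8.84 against 11.89, 11.97, 11.68 and 11.70 in the thoracic one. Its changes were -3.61 ± 0.37 and -2.26 ± 0.40 (adjusted p = 5.7e-05 and 0.008). Markers shared by all adipocytes had 4 of 11 lower in the abdominal and 1 of 11 in the thoracic aorta, and fibroblast markers 4 of 6 and 1 of 6.

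With the brown adipocyte list mean as a covariate limma called 0 of the 56 members in the abdominal aorta and 0 in the thoracic one, with 2 and 5 at an unadjusted p under 0.05. The median change of the members was then 0.10 and 0.12. Cox5b gave -0.53 ± 0.22 and Atp5e -0.38 ± 0.16 in the abdominal aorta under that fit. The same fit called 0 of all genes in the abdominal aorta. Since the list mean does not overlap between the diets, the diet and this mean cannot be told apart.

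The abdominal change was also read without the arrays that carry hepatocyte or lymphocyte markers. Without high-phosphate arrays 3 and 4, the ones with hepatocyte markers, 36 of the 37 calls were kept and the members' median was -0.55. Without the 5 arrays with lymphocyte markers, which leaves high-phosphate array 3 against chow arrays 1 and 3, the median was -0.51 with 52 of 56 values negative. The single high-phosphate array in that fit is assumed to vary like the other groups, and it carries hepatocyte markers (list mean 8.79). Each abdominal high-phosphate array thus carries lymphocyte or hepatocyte markers, or both, whereas abdominal chow arrays 1 and 3 carry neither.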

How the data were processed

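The deposited table gives 1 value per probe set and array, taken as log2 intensities made by the authors. Per the submitters' processing notes Partek and RMA were used, in roles and versions not given in the sources used here. The log base was inferred from the range of 1.381 to 13.33. Per the labels' protocols, a NuGEN whole-transcript kit (Applause) amplified the RNA before biotin labelling. Array medians were 5.778 to 5.84. Scan dates and detection calls were not used here, so batches by date and signal over background are unknown, and the number of arrays limits precision.

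Of 41345 probe sets 23521 name 1 gene and 1814 several. The brightest per gene over all arrays was kept, which gave 22180 genes. Of the 7 members with further probe sets, those of Cox5b, Cox7b, Atp5e and Atp5h are given with the genes. In the abdominal diet comparison the dimmer probe set gave -0.53 for Atp5d and -0.15 for Atp5g2. For Sdhaf1 it gave -0.01 there, and 0.30 between segments on chow, where the kept probe set gave 0.04. A model of 4 group means was fitted to all genes in R 4.3.3 by limma 3.58.1 (lmFit, then eBayes with an intensity trend, on 11 residual degrees of freedom), two-sided, with 5 comparisons, each Benjamini-Hochberg adjusted over all genes. The fit was tested on simulated data. Members and lists were chosen with earlier results of these data known, so counts of members are descriptions.

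Values array by array were given for the 2 subunits per complex with the smallest p of the abdominal diet change, the 1 with the largest p, all tissue isoforms and the 2 assembly factors with the smallest p. Uqcrc1 and Atp5g1 were added after their values were seen. Alternatives were no trend in the prior, no genes under the 30th percentile, array weights, median centring, quantile normalization, a fit of only the groups compared, a replicate block, probe sets averaged per gene, the brown adipocyte mean as covariate, an adjusted p under 0.1, and leaving out marked arrays or each array in turn. The motif search covered both strands of the RefSeq windows, 46 for 42 members.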

Additional observations from a re-analysis of the deposited data

Results flagged for a closer look

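In 2 of the 69 sets of 4 arrays checked, 1 array stood apart from the other 3 by more than Dixon's 95% critical value, where chance alone gives about 1 in 20. The mean of the complex II subunits on abdominal high-phosphate array 3 was 8.93, against 8.75 to 8.77 on the other 3, a gap of 0.901 of the range. That array is one of the 2 with hepatocyte markers, and its value is below every chow array. Cox8c on thoracic chow array 4 read 4.67, against 4.42 to 4.43 on the other 3, a gap of 0.969 of the range, at a low level.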

How the results depend on the processing

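The 37 abdominal falls were kept in full without a trend in the prior, without dim genes, with only the groups compared, after quantile normalization or median centring and with array weights, and 36 were kept with probe sets averaged per gene. Leaving out each array in turn gave 36 to 39 calls in the abdominal aorta, 3 to 14 in the thoracic one, 0 to 0 for their difference, and 1 to 12 and 24 to 37 between segments on chow and on high phosphate. A fit of only the groups compared gave 6 thoracic calls, and an adjusted p under 0.1 gave 12 on chow. Of 21 same-numbered pairs of arrays 5 had a correlation of deviations over 0.1 (range -0.25 to 0.404). Differently numbered pairs were not compared, so whether replicate numbers pair the arrays cannot be told. With a replicate block 37, 13, 0, 5 and 34 members were called in the 5 comparisons. Without the 5 arrays with lymphocyte markers the counts were 4 for the abdominal and 8 for the thoracic diet change, and 1 and 2 between segments on chow and on high phosphate, where the members' median was 0.327 against 0.393 with all arrays.

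The brown adipocyte mean as a covariate gave 0, 0, 1 and 1 calls in the abdominal, thoracic, chow and high-phosphate comparisons, and the cause was not tested. Of all genes it called 0, 21, 483 and 35. Medians for complexes II, III, IV and V were then 0.255, -0.023, 0.101 and 0.037 in the abdominal aorta, 0.269, 0.136, 0.117 and 0.088 in the thoracic one, -0.014, -0.103, -0.074 and -0.054 for their difference, -0.052, 0.073, 0.031 and 0.106 between segments on chow, and -0.047, 0.203, 0.098 and 0.131 on high phosphate. Among genes named array by array and called in the comparison, the sign changed in the abdominal aorta (Sdhc 0.152, Sdha 0.083, Sdhd 0.493, Uqcrh 0.056, Cox17 0.16, Cox14 0.156), in the thoracic aorta (Sdhc 0.195, Uqcrc2 0.08, Cox17 0.088) and between segments on high phosphate (Sdhc -0.002, Sdhd -0.148). None of these abdominal and thoracic values was called. Their standard errors were 0.178 to 0.29 in the abdominal and 0.115 to 0.167 in the thoracic aorta.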
